A study of Homo sapiens with 16 samples.

Results

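Solute carriers are the membrane proteins that move amino acids, sugars, ions, metals, vitamins and nucleotides across the plasma membrane and the membranes of organelles. The transcripts of 145 of them were measured here among the 10566 genes of an expression table made from prostate cancer spheroids. A gene was included when its symbol had the form SLC, a family number, A and a member number. The rule left out 12 carriers: the glucose carrier SLC2A1, SLC2A3, SLC16A1, SLC16A3, SLC7A11, SLC7A5, SLC3A2, SLC7A1, SLC38A2, SLC1A4, SLC30A1 and the prostate carrier SLC45A3. Applied to the whole count table, it found 325 genes, of which 66 had 0 counts in every library and 114 were counted but fell below the filter on low counts, the highest of these being SLC10A7 with 103 counts in all. The 145 members belonged to 41 families. The choice rested on the symbol and on passing that filter, and on no test between groups. The filter took account of the 6 groups, so a gene counted in 1 line alone could pass. SLC6A15, with 0 counts in all LNCaP and PC3 libraries, passed in this way. The same holds for all 8 carriers described below as restricted to a line, which passed only through that line.

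The spheroids were of 3 established prostate cancer cell lines. LNCaP cells need androgen to grow and are sensitive to the antiandrogen drug enzalutamide. 22Rv1 cells still respond to androgen but are resistant to the drug. PC3 cells are insensitive to both. Each culture was transfected with 25 pmol of a mixture of siRNAs, directed at MED12 in the siMED12 libraries and at no gene in the siCtrl libraries, so the controls were transfected as well. It then grew for 3 days in 2D and 4 days as spheroids. MED12 is a subunit of the kinase module of Mediator, the complex that links transcription factors to RNA polymerase II. There were 3 siCtrl libraries in each line and 3 siMED12 libraries in LNCaP, but 2 siMED12 libraries, replicates 1 and 3, in 22Rv1 and in PC3. The study describes its replicates as biological in general terms, but the labels do not tie the libraries to cultures, so p-values measure only the spread between these libraries.

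Each library held between 479118 and 993807 counts of 3′ transcript ends, with a median of 764494. Levels are given as CPM, the counts of a gene scaled to a common library total after TMM normalization. Since only transcript ends were counted, these levels do not scale with transcript length. Where a gene is at 0, the upper limit is 3 counts, or 3.15 to 6.22 CPM by library, a limit that covers counting error only. The paper reports that knockdown of MED12 was highly efficient in its spheroids. Here MED12 had only 5 to 22 counts per library, and its fall did not pass after adjustment over all genes. The log2 fold change was -0.50 in LNCaP (adjusted p 0.878), -1.28 in 22Rv1 (adjusted p 0.175) and -0.22 in PC3 (adjusted p 0.987). In the same edgeR test the unadjusted p was 0.289 in LNCaP, 0.00836 in 22Rv1 and 0.612 in PC3. In 22Rv1 the counts were 18, 10 and 15 with siCtrl and 7 and 7 with siMED12, without overlap. In LNCaP and PC3 the counts of the treatments overlapped. As a check of the PC3 labels, 8 mesenchymal genes that include VIM and CAV1 summed to 2234 to 2626 CPM in the libraries of PC3, against 48.0 to 156 CPM in LNCaP and 141 to 262 CPM in 22Rv1. The sums of LNCaP and 22Rv1 overlapped, so they cannot tell these 2 lines apart. A few libraries carried transcripts of another line. Over 47 genes that mark PC3, 22Rv1 siMED12 replicate 3 stood at 4.98% of the PC3 level, while the other LNCaP and 22Rv1 libraries stood at 0.596% to 1.55%. PC3 siMED12 replicate 3 stood at 2.81% of the LNCaP level over 4 genes that mark LNCaP, and PC3 siCtrl replicate 3 at 2.76% of the 22Rv1 level over 13 genes that mark 22Rv1.

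Each carrier family shares a fold and, broadly, a kind of substrate. The SLC25 family sits mostly in the inner mitochondrial membrane, where it exchanges nucleotides, phosphate and metabolites with the cytosol. All 36 of its members are called mitochondrial carriers here, including the few that sit elsewhere. SLC1, SLC6, SLC7, SLC38 and SLC43 proteins mostly carry amino acids or amines. SLC39 proteins bring zinc and related metals into the cytosol and SLC30 proteins take zinc out of it, which has long been of interest in the prostate because its secretory epithelium accumulates zinc and citrate. The members were grouped into 10 substrate classes from general knowledge of the families: 36 mitochondrial carriers, 20 carriers of inorganic ions and pH, 19 of amino acids, 19 of transition metals, 16 of nucleosides, vitamins and choline, 13 of organic ions, amines and peptides, 9 of sugars, 7 of lipids and acetyl-CoA, 5 of nucleotide sugars and other Golgi substrates and 1 of monocarboxylates.

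The carriers took 0.872% to 0.940% of the counts of each library. Mitochondrial carriers took most of it, 54.6% to 64.7% of the carrier counts. In the siCtrl spheroids 80 members in LNCaP, 76 in 22Rv1 and 84 in PC3 reached a mean of 20 CPM, and 55 did so in all 3 lines. The median member stood at 22.8 ± 0.480 CPM in LNCaP, 20.9 ± 0.881 CPM in 22Rv1 and 22.2 ± 0.777 CPM in PC3 (SD, n = 3 each). Only a few members had 0 counts in all siCtrl libraries of a line. These were SLC47A1, SLC52A3 and SLC6A15 in LNCaP, SLC6A19 in 22Rv1, and SLC34A3, SLC6A15 and SLC6A19 in PC3.

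The first comparison asked how the lines differ in their carriers before any knockdown. Carriers differed between the lines in both directions. Between 22Rv1 and LNCaP, 77 of the 145 members passed the threshold, 33 higher in 22Rv1, where 22% of all genes were higher, and 44 lower, where 21.2% of all genes were lower. Between PC3 and LNCaP, 84 passed, 42 higher in PC3 against 29.2% of all genes and 42 lower against 25.5%. Between PC3 and 22Rv1, 75 passed, 42 higher in PC3 against 28.7% of all genes and 33 lower against 26.1%. In all, 117 members passed in at least 1 of these comparisons, where 76.4% of all genes did, and 28 in none. In all 3 comparisons 24 members passed, where 14.4% of all genes did. The median size of the log2 difference was 0.82 for the members between 22Rv1 and LNCaP against 0.61 for all genes, 0.91 against 0.75 between PC3 and LNCaP, and 0.82 against 0.76 between PC3 and 22Rv1. The lines came from different tumours, so no single trait of a line can be told apart from the rest of it. In these bulk samples fewer cells of a kind and less RNA per cell cannot be told apart either.

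**Figure D1:**
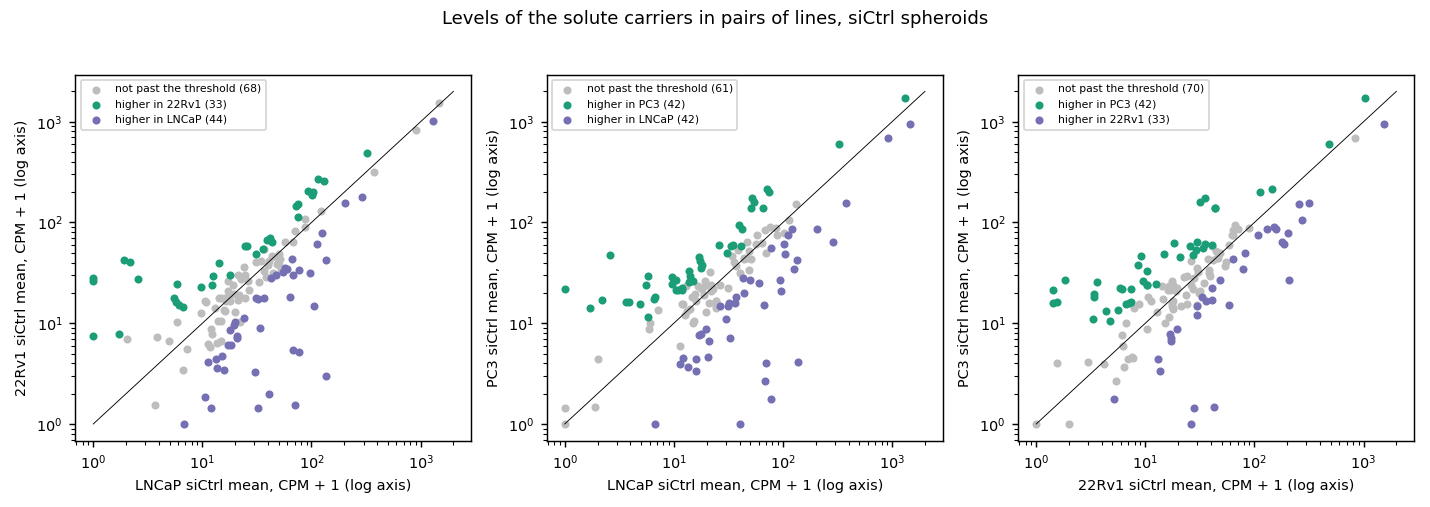
Mean level of each of the 145 carriers in the siCtrl spheroids of 2 lines, as CPM plus 1 on log axes, with the line of equal levels. Colours mark members past the threshold: 33 higher in 22Rv1 and 44 higher in LNCaP (left), 42 higher in PC3 and 42 higher in LNCaP (middle), and 42 higher in PC3 and 33 higher in 22Rv1 (right).

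A small group of carriers was read almost wholly in a single line. A member was called restricted when its siCtrl mean was at least 20 CPM in the line and at least 8 times the siCtrl mean of each other line, and when it passed the test against both. LNCaP had 5 such members, SLC22A3, SLC4A4, SLC30A4, SLC44A4 and SLC34A3, which is 3.45% of the members where 0.653% of all genes were restricted to LNCaP. 22Rv1 had 3, SLC5A5, SLC47A1 and SLC6A15, where 1.22% of all genes were restricted to 22Rv1. PC3 had 0, where 3.39% of all genes were restricted to PC3. The restricted members met the filter on low counts only through their own line. Their tests against the other lines thus describe genes admitted where they are high and are no independent support. There was a gap around the limit of 8 times. The lowest ratio inside the rule was 15.3, that of SLC44A4 in LNCaP. Among members called higher in 1 line than in both others with at least 20 CPM, the highest ratio outside it was 3.34 for SLC39A9 in PC3. Next came 3.29 for SLC52A3 in PC3 and 3.23 for SLC25A10 in LNCaP.

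SLC22A3 was the most abundant restricted carrier. It encodes an organic cation carrier of the plasma membrane and lies on chromosome 6, 160348378 to 160452577 (GRCh38, Gencode release 44, plus strand). Its level was 124, 155 and 129 CPM in the LNCaP siCtrl libraries, 1.30, 3.34 and 1.28 CPM in those of 22Rv1, and 1.29, 5.26 and 2.89 CPM in those of PC3. The lowest LNCaP library lay far above the highest of either other line. The log2 difference was -6.07 (SE 0.37) for 22Rv1 against LNCaP and -5.30 (SE 0.32) for PC3 against LNCaP.

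SLC4A4 encodes a sodium bicarbonate cotransporter that sets intracellular pH (chromosome 4, 71062667 to 71572087, plus strand). It was read at 69.6, 75.9 and 82.7 CPM in LNCaP siCtrl, at 5.21, 3.34 and 3.85 CPM in 22Rv1 siCtrl and at 1.29, 1.05 and 0 CPM in PC3 siCtrl. The 3 lines did not overlap. PC3 held 2 counts in all against 173 in LNCaP, a ratio of 93.2 with a 95% counting interval of 25.4 to 775. Against 22Rv1 it was 2 counts to 9, a ratio of 5.07 with a counting interval of 1.05 to 48.2. The call between PC3 and 22Rv1 (adjusted p 0.0437) was lost in 9 of 25 alternative analyses.

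SLC30A4 encodes a zinc carrier that fills intracellular vesicles (chromosome 15, 45479606 to 45522755, minus strand). Its level was 72.9, 74.5 and 60.4 CPM in LNCaP siCtrl, 0, 1.67 and 0 CPM in 22Rv1 siCtrl and 2.58, 2.10 and 4.33 CPM in PC3 siCtrl. A single count was seen in 22Rv1 against 153 in LNCaP, a ratio of 146 with a counting interval of 25.9 to 5814. SLC30A4 stood higher in PC3 than in 22Rv1 by 2.28 on the log2 scale (SE 1.13), which did not pass (adjusted p 0.0851).

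SLC44A4, a carrier of the choline carrier family that takes up thiamine pyrophosphate (chromosome 6, 31863192 to 31879046, minus strand), was read at 76.2, 68.7 and 56.2 CPM in LNCaP siCtrl, 5.21, 6.69 and 1.28 CPM in 22Rv1 siCtrl and 3.87, 1.05 and 0 CPM in PC3 siCtrl. SLC34A3, a sodium phosphate cotransporter best known from the kidney (chromosome 9, 137230757 to 137236555, plus strand), was read at 34.8, 50.1 and 33.9 CPM in LNCaP siCtrl, 1.30, 1.67 and 0 CPM in 22Rv1 siCtrl and 0 in all PC3 siCtrl libraries. Its LNCaP level was at least 10.5-fold higher than the 3 counts per library that PC3 could have held. For SLC44A4 and SLC34A3 every LNCaP library lay above every library of the other lines.

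SLC5A5, the sodium iodide symporter that concentrates iodide in the thyroid (chromosome 19, 17871945 to 17895174, plus strand), was the most abundant 22Rv1 carrier of this kind and the most uneven. The siCtrl libraries of 22Rv1 read 63.8, 43.5 and 16.7 CPM, those of LNCaP 1.66, 0 and 1.06 CPM and those of PC3 0, 0 and 1.45 CPM. The lowest 22Rv1 library still lay above every library of the other lines. The log2 difference was 5.29 (SE 0.67) for 22Rv1 against LNCaP and -6.15 (SE 0.74) for PC3 against 22Rv1.

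SLC47A1, a proton antiporter that extrudes organic cations and drugs such as metformin in kidney and liver (chromosome 17, 19495385 to 19579034, plus strand), had 19, 13 and 27 counts in 22Rv1 siCtrl, which is 24.7, 21.7 and 34.6 CPM. It had 0 counts in all 6 LNCaP libraries and 1 count in the 5 PC3 libraries. SLC6A15, a sodium-coupled carrier of branched-chain amino acids mainly found in neurons (chromosome 12, 84859491 to 84913629, minus strand), had 18, 14 and 22 counts in 22Rv1 siCtrl, or 23.4, 23.4 and 28.2 CPM, and 0 counts in all LNCaP and PC3 libraries. Against the 3 counts per library that LNCaP could have held, the 22Rv1 level was at least 6.52-fold higher for SLC47A1 and at least 6.03-fold higher for SLC6A15.

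The sequence before the start site is shown for the restricted carriers with a single listed start, SLC30A4 of LNCaP and SLC5A5 of 22Rv1. A RefSeq table of promoters (GRCh38.p14) held 119 of the 145 members and 5 of the 8 restricted ones. The 250 bases before each start were searched on both strands for CACGTG, the E-box bound by MYC and its relatives, and for GGGCGG, the GC box of SP factors, which do not overlap each other. Among 35116 promoter windows of that length, 6.34% held CACGTG and 42.6% held GGGCGG. Capitals mark the matches, which are all GC boxes, 3 before SLC30A4 (chr15:45522756-45523005, minus strand) and 1 before SLC5A5 (chr19:17871695-17871944, plus strand), and no match says only that the E-box letters are not in this window.
SLC30A4: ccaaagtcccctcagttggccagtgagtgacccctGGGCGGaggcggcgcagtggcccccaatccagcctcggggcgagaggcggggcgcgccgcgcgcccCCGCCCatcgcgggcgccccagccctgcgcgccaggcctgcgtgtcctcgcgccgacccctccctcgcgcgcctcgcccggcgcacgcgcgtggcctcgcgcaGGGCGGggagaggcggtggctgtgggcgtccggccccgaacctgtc
SLC5A5: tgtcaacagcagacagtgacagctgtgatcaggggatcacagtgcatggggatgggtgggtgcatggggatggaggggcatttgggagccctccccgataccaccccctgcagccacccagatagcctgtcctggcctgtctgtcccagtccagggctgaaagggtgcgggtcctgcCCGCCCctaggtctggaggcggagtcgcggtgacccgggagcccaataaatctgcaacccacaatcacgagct

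With siMED12 the restricted carriers were still read mainly in their own lines. The 5 LNCaP members summed to 378, 424 and 363 CPM in LNCaP siCtrl and to 354, 402 and 455 CPM in LNCaP siMED12, so the treatments overlapped. They summed to 6.42 to 16.7 CPM in the 10 libraries of the other lines. The 16.6 CPM of PC3 siMED12 replicate 3, which carried LNCaP transcripts, was the highest of the 5 PC3 libraries. The 3 members of 22Rv1 summed to 112, 88.6 and 79.6 CPM in siCtrl and to 101 and 52.6 CPM in siMED12, and to at most 1.66 CPM in the 11 libraries of the other lines. The lower siMED12 value of 22Rv1 was that of replicate 3, the library that stood at 4.98% of the PC3 level over the genes that mark PC3. In replicate 3 SLC6A15 had 7 counts against 30 in replicate 1, and SLC5A5 31 against 59. The part of the PC3 transcripts in these values was not tested. In its own line, SLC4A4 read 83.9 to 108 CPM with siMED12, above its siCtrl libraries, but did not pass (log2 fold change 0.32, SE 0.19, adjusted p 0.756).

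**Figure D2:**
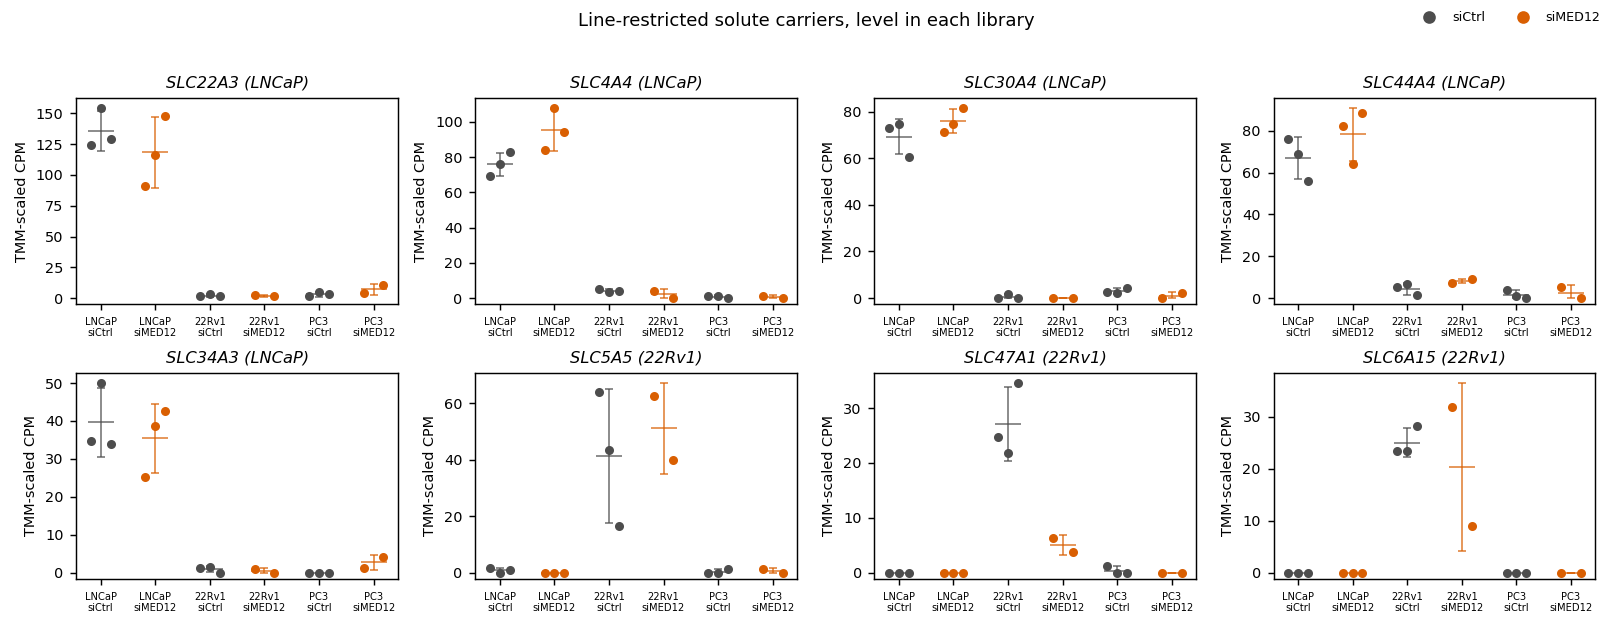
TMM-scaled CPM of the 8 line-restricted carriers in each of the 16 libraries (points), with group means and SD (bars). All LNCaP libraries stood at 25.2 CPM or more for SLC34A3, the lowest of the 5 LNCaP carriers, and SLC47A1 in 22Rv1 is the single case in which siCtrl and siMED12 differed past the threshold.

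A looser grouping takes members that passed as higher in 1 line than in both others. LNCaP had 25 members higher than in both other lines, or 17.2% of the members, where 11.8% of all genes were. 22Rv1 had 13 members of this kind, or 8.97%, where 12.1% of all genes were. PC3 had 24, or 16.6%, where 19.5% of all genes were. The 24 PC3 members included 5 mitochondrial carriers, 4 of nucleosides, vitamins and choline, and 3 each of amino acids, transition metals and organic ions. Their largest ratios to the next line, named after their values were seen, were 5.64 for SLC16A9, a carnitine and urate carrier at 15.1 CPM, and 3.34 for SLC39A9, a zinc importer at 172 CPM, followed by 3.29 for SLC52A3, a riboflavin carrier at 21.0 CPM. The 25 LNCaP members included 5 carriers of amino acids, 4 mitochondrial carriers and 4 of inorganic ions and pH, and the 13 of 22Rv1 included 3 carriers of amino acids.

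Among the mitochondrial carriers SLC25A5 and SLC25A3 were the highest of all members. SLC25A5, which swaps ADP for ATP (chromosome X, 119468422 to 119471396, plus strand), stood at 1307, 1222 and 1380 CPM in LNCaP siCtrl, 1081, 1033 and 965 CPM in 22Rv1 siCtrl and 1585, 1770 and 1845 CPM in PC3 siCtrl. The 3 lines did not overlap, with PC3 highest and 22Rv1 lowest, and each pair passed the test. The call between 22Rv1 and LNCaP was lost without LNCaP siCtrl replicate 3 (adjusted p 0.0928) and without 22Rv1 siCtrl replicate 3 (adjusted p 0.0829). SLC25A3, which brings phosphate into the matrix (chromosome 12, 98593591 to 98606379, plus strand), ran the other way in PC3. It stood at 1551, 1348 and 1506 CPM in LNCaP, 1567, 1431 and 1597 CPM in 22Rv1 and 920, 994 and 925 CPM in PC3, lower in PC3 than in 22Rv1 by a log2 difference of -0.69 (SE 0.10) and than in LNCaP by -0.63 (SE 0.10). LNCaP and 22Rv1 overlapped (adjusted p 0.665).

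SLC25A6, another ADP and ATP carrier, lies in the pseudoautosomal region, and its counts were spread over an X row and a Y row of which the Y row bears the plain symbol. The member row held 61.8% to 67.7% of the sum of both, depending on the group. The sum was 1372 ± 131 CPM in LNCaP siCtrl, 1268 ± 39.0 CPM in 22Rv1 siCtrl and 1119 ± 56.9 CPM in PC3 siCtrl (SD, n = 3 each). SLC25A33, a mitochondrial pyrimidine nucleotide carrier, differed in steps over the lines, at 287 ± 15.6 CPM in LNCaP, 179 ± 20.3 CPM in 22Rv1 and 62.3 ± 9.91 CPM in PC3, with each pair past the threshold. The 36 mitochondrial carriers together stood at 6030 ± 199 CPM in LNCaP, 5849 ± 157 CPM in 22Rv1 and 5318 ± 181 CPM in PC3. Of the 36, 9 were higher and 13 lower in PC3 than in LNCaP, where 29.2% of all genes were higher and 25.5% lower.

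**Figure D3:**
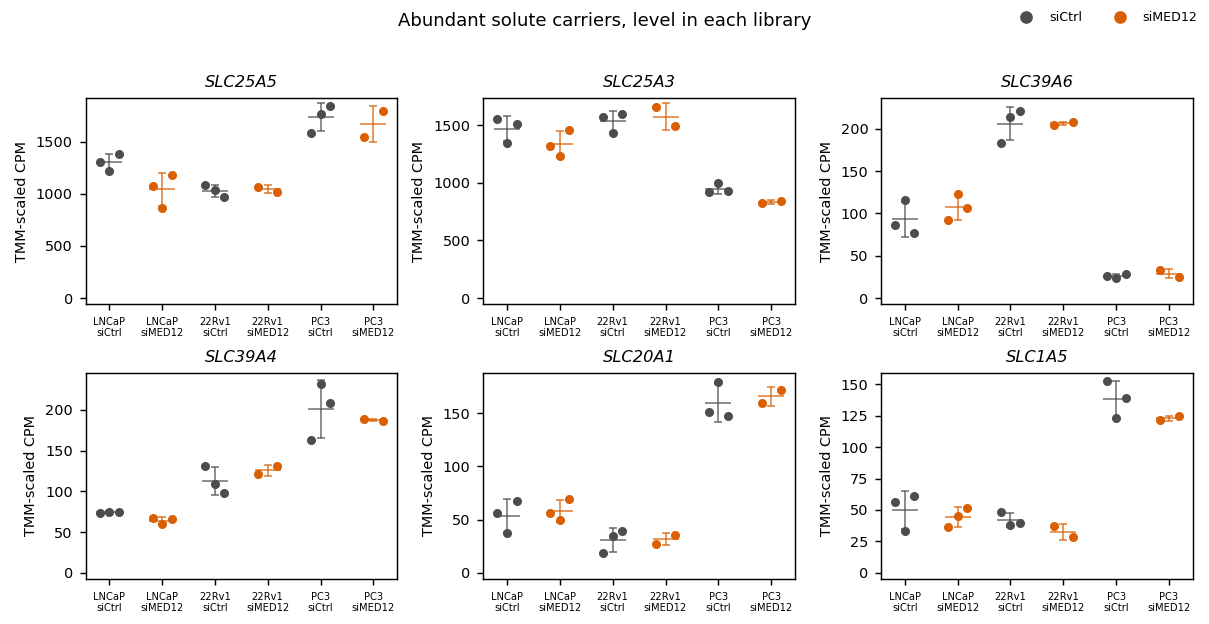
TMM-scaled CPM of 6 abundant carriers in each of the 16 libraries (points), with group means and SD (bars). SLC25A5 was highest and SLC25A3 lowest in PC3, SLC39A6 was 23.1 to 33.0 CPM in PC3 against 76.3 CPM or more elsewhere, and SLC39A4, SLC20A1 and SLC1A5 were highest in PC3.

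The transition metal carriers are mostly zinc importers and exporters. The 10 members of the importing SLC39 family summed to 475 to 544 CPM in LNCaP siCtrl, 630 to 635 CPM in 22Rv1 siCtrl and 705 to 805 CPM in PC3 siCtrl. The 5 members of the exporting SLC30 family summed to 220 to 278 CPM in LNCaP, 154 to 190 CPM in 22Rv1 and 121 to 151 CPM in PC3. SLC30A1 was left out by the rule and is not in this sum. No test was run on the sums, and single genes made part of their order. Without SLC30A4 the SLC30 family summed to 160 to 205 CPM in LNCaP and 154 to 190 CPM in 22Rv1, which overlapped, and 117 to 149 CPM in PC3. Without SLC39A6 the SLC39 family summed to 399 to 452 CPM in LNCaP and 414 to 450 CPM in 22Rv1, which overlapped, and 676 to 782 CPM in PC3. Of the SLC39 family 5 members were higher and 2 lower in PC3 than in LNCaP, and of the SLC30 family 0 were higher and 2 lower. Of all genes 29.2% were higher and 25.5% lower in that comparison. SLC39A6, an importer first described as an estrogen-regulated gene (chromosome 18, 36108531 to 36129385, minus strand), was 184, 214 and 221 CPM in 22Rv1, 86.2, 116 and 76.3 CPM in LNCaP and only 25.8, 23.1 and 28.9 CPM in PC3, a log2 difference of -2.99 (SE 0.20) between PC3 and 22Rv1. SLC39A4, the main zinc importer of the gut (chromosome 8, 144409742 to 144416844, minus strand), was 162, 232 and 208 CPM in PC3, 131, 109 and 97.5 CPM in 22Rv1 and 72.9, 74.5 and 75.3 CPM in LNCaP. Each pair of lines passed for both genes, although SLC39A4 did not pass between 22Rv1 and LNCaP without 22Rv1 siCtrl replicate 1 (adjusted p 0.0579). SLC30A7, which loads zinc into the Golgi, was highest in 22Rv1 at 57.3 CPM, against 23.6 CPM in LNCaP, with which its libraries overlapped, and 14.3 CPM in PC3.

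Among the amino acid carriers kept by the rule, SLC1A5 and SLC38A1, which both take up glutamine, were the most abundant and peaked in different lines. SLC1A5 (chromosome 19, 46774883 to 46788594, minus strand) was read at 152, 123 and 139 CPM in PC3, 56.3, 32.9 and 61.5 CPM in LNCaP and 48.1, 38.4 and 39.8 CPM in 22Rv1. It was higher in PC3 by 1.43 (SE 0.19) against LNCaP and 1.70 (SE 0.20) against 22Rv1 on the log2 scale. SLC38A1 (chromosome 12, 46183063 to 46270017, minus strand) was read at 129, 164 and 160 CPM in 22Rv1, 87.8, 70.2 and 65.7 CPM in LNCaP and 90.3, 77.8 and 98.2 CPM in PC3. It was higher in 22Rv1 than in LNCaP by 1.03 (SE 0.18), and LNCaP and PC3 did not pass (adjusted p 0.255). The 19 amino acid carriers kept by the rule summed to a like level in the 3 lines, 510 ± 47.8, 528 ± 26.2 and 504 ± 27.4 CPM in LNCaP, 22Rv1 and PC3. Those it left out, such as SLC7A5 and SLC38A2, are not in this sum.

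The carriers of inorganic ions were led by SLC4A2, a chloride and bicarbonate exchanger, and SLC20A1, a phosphate carrier that also serves as a retrovirus receptor. SLC4A2 (chromosome 7, 151057210 to 151076526, plus strand) was 255, 244 and 313 CPM in 22Rv1 against 92.8 to 131 CPM in LNCaP and 88.3 to 123 CPM in PC3, which overlapped (adjusted p 0.482). SLC20A1 (chromosome 2, 112645939 to 112663825, plus strand) was 151, 180 and 147 CPM in PC3 against 37.2 to 67.8 CPM in LNCaP and 18.2 to 39.8 CPM in 22Rv1, and it passed in all 3 comparisons. The libraries of 22Rv1 and LNCaP overlapped, and the log2 difference of -0.83 between them (adjusted p 0.0116) did not pass without LNCaP siCtrl replicate 3 (adjusted p 0.148) or without 22Rv1 siCtrl replicate 1 (adjusted p 0.118). Of the phosphate carriers named in this class, SLC34A3 was thus restricted to LNCaP and SLC20A1 was highest in PC3. The mitochondrial phosphate carrier SLC25A3 was instead lower in PC3 than in both other lines.

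Of the 16 carriers of nucleosides, vitamins and choline, 6 were higher and 4 lower in PC3 than in LNCaP. Of all genes 29.2% were higher and 25.5% lower there. Between PC3 and 22Rv1, 8 of the 16 were higher and 4 lower in PC3, against 28.7% and 26.1% of all genes. The untested sum of the 16 was 803 ± 47.3 CPM in PC3, 607 ± 34.8 CPM in LNCaP and 569 ± 21.4 CPM in 22Rv1 (SD, n = 3 each). SLC52A2, a riboflavin carrier, stood at 70.9 CPM in LNCaP, 145 CPM in 22Rv1 and 216 CPM in PC3, and each pair of lines passed. SLC44A2, of the choline carrier family, was 137 CPM in PC3 against 65.3 CPM in LNCaP and 42.8 CPM in 22Rv1. The 4 SLC44 members were all lower in 22Rv1 than in LNCaP, where 21.2% of all genes were lower. The call for SLC44A2 (-0.57 on the log2 scale) was lost in 6 of 25 alternative analyses, namely with DESeq2, with no filter, and on leaving out siCtrl replicate 1 or 2 of either line, with adjusted p-values up to 0.121. The sum of the 4, at 65.2 to 82.1 CPM in 22Rv1, lay below the 191 to 219 CPM of LNCaP and the 213 to 219 CPM of PC3. SLC44A3 was the extreme case, with 1 count in the 22Rv1 siCtrl libraries against 71 in LNCaP and 37 in PC3.

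Of the 13 organic ion carriers, 1 was higher and 5 lower in 22Rv1 than in LNCaP, where 22% of all genes were higher and 21.2% lower. Between PC3 and LNCaP, 3 of the 13 were higher and 5 lower in PC3, against 29.2% and 25.5% of all genes. SLC22A3 and SLC6A8 made most of the difference in the sum of the 13, which was 389 ± 8.57 CPM in LNCaP, 151 ± 28.5 CPM in 22Rv1 and 215 ± 22.0 CPM in PC3. Without them the sums overlapped, at 139 to 164, 117 to 163 and 134 to 194 CPM. SLC6A8, the creatine carrier (chromosome X, 153687926 to 153696588, plus strand), was 109, 94.5 and 109 CPM in LNCaP, 41.3, 47.3 and 54.9 CPM in PC3 and 10.4, 11.7 and 19.2 CPM in 22Rv1, and all 3 lines differed. Of the sugar carriers SLC50A1, a Golgi and plasma membrane sugar carrier, was highest in 22Rv1 at 187, 186 and 184 CPM and lowest in PC3 at 73.5, 48.4 and 59.2 CPM. SLC37A4, the glucose 6-phosphate carrier of the endoplasmic reticulum, was lower in PC3 than in LNCaP by a log2 difference of -0.91 (SE 0.26) and than in 22Rv1 by -0.85 (SE 0.27), the latter not passing without 22Rv1 siCtrl replicate 1 (adjusted p 0.0651) or PC3 siCtrl replicate 1 (adjusted p 0.0575).

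Among the smallest classes SLC35A4, a Golgi carrier, showed no difference past the threshold between any pair of lines, at 45.9 CPM in LNCaP, 44.01 CPM in 22Rv1 and 43.02 CPM in PC3. SLC35A2, which brings UDP-galactose into the Golgi, was 58.4 CPM in PC3 against 33.6 and 40.1 CPM in LNCaP and 22Rv1, and its call between PC3 and 22Rv1 (adjusted p 0.0469) was lost in 15 of 25 alternative analyses. The fatty acid carriers SLC27A5 and SLC27A2 were lower in 22Rv1 than in LNCaP, by log2 differences of -0.69 (SE 0.24) and -0.83 (SE 0.26). The call for SLC27A5 was lost with DESeq2 (adjusted p 0.0743) and without LNCaP siCtrl replicate 1 (0.102), LNCaP siCtrl replicate 2 (0.0620) or 22Rv1 siCtrl replicate 3 (0.180), where the log2 difference was -0.43. SLC16A14, an orphan of the monocarboxylate family and the single member of its class, stayed between 1.28 and 23.7 CPM in every library and was higher in PC3 than in 22Rv1 by 1.43 on the log2 scale (SE 0.56), a call lost in 5 of 25 alternative analyses, with DESeq2 (adjusted p 0.0985) and without siCtrl replicate 2 or 3 of either line (up to 0.160).

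The second comparison asked which carriers changed with siMED12 in each line. In LNCaP 0 of the 145 members passed, where 0.0473% of all genes were higher and 0.369% lower. Of these members 7 had an unadjusted p under 0.05, which is 4.83% of the members against 7.34% of all genes. DESeq2 and limma also called 0 there. In 22Rv1 1 member passed, the lower SLC47A1, where 0.994% of all genes were higher and 0.842% lower. There 20 members had an unadjusted p under 0.05, which is 13.8% against 11.7% of all genes. In PC3 0 members passed, where 0% of all genes were higher and 0% lower, 5 had an unadjusted p under 0.05, or 3.45% against 4.99%, and DESeq2 and limma called 0. The mean of the 3 effects gave 0 members, where 0.0568% of all genes were higher and 0.208% lower. In it 15 members had an unadjusted p under 0.05, or 10.3% against 8.52% of all genes. For the mean effect DESeq2 called 0 and limma 1, SLC44A3. The tests of the difference between lines gave 0 members for 22Rv1 minus LNCaP, PC3 minus LNCaP and PC3 minus 22Rv1, where 0.189%, 0.0284% and 0.0946% of all genes passed. DESeq2 and limma also called 0. An unadjusted p under 0.05 was found for 8, 7 and 8 members. That is 5.52%, 4.83% and 5.52% of the members, against 8.28%, 5.02% and 9.16% of all genes.

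SLC47A1 in 22Rv1 was the member that passed. Its siCtrl libraries had 19, 13 and 27 counts and its siMED12 libraries 6 and 3, or 27.0 ± 6.76 CPM (SD, n = 3) against 5.10 ± 1.78 CPM (n = 2). Both siMED12 libraries lay below every siCtrl library. SLC47A1 met the filter on low counts only through the 22Rv1 siCtrl libraries, where it was high. The test of its fall is thus on a gene that its high group admitted. The log2 fold change came to -2.36, with an SE of 0.49 and an adjusted p of 0.0074. The call rested on few counts and few libraries. Without siCtrl replicate 3 the adjusted p was 0.0556, without siMED12 replicate 1 it was 0.0677, and without siMED12 replicate 3, the library with PC3 transcripts, it was 0.0916, while the log2 fold change stayed between -2.78 and -2.08 over all single libraries left out. DESeq2 gave a log2 fold change of -2.39 and no adjusted p, since its filter on mean counts removed the gene. No siMED12 effect on SLC47A1 can be read in LNCaP or PC3, where its counts were 0 or 1.

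SLC44A3, a choline carrier family member, came next in 22Rv1 (chromosome 1, 94820342 to 94895246, plus strand). It had 0, 0 and 1 counts in siCtrl and 6 and 5 in siMED12, a ratio of 13.7 with a 95% counting interval of 1.99 to 590, and its adjusted p of 0.0677 did not pass. Its siMED12 libraries also lay above every siCtrl library in LNCaP, at 43.4, 44.04 and 46.0 CPM against 23.2, 37.2 and 32.9 CPM, and in PC3, at 22.4 and 27.0 CPM against 10.3, 19.97 and 14.4 CPM. The mean log2 fold change over the lines was 1.51 (SE 0.35) with an adjusted p of 0.0532, the smallest of any member. It passed in the mean effect in 6 of 24 alternative analyses and in 22Rv1 in 2 of 25.

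The other 22Rv1 members with the smallest p did not pass either. Over all members siCtrl and siMED12 did not overlap for 32 in 22Rv1, 23 in LNCaP and 27 in PC3, or 22.1%, 15.9% and 18.6%, where 26.6%, 12.6% and 20.7% of all genes did not. SLC25A33 read 156, 186 and 195 CPM in siCtrl and 124 and 117 CPM in siMED12, or -0.57 on the log2 scale (SE 0.17) with an adjusted p of 0.0921. SLC38A1, the glutamine carrier that peaks in 22Rv1, read 129, 164 and 160 CPM and then 93.3 and 104 CPM, or -0.61 (SE 0.19) with an adjusted p of 0.0964. SLC26A11, a sulfate and chloride carrier of lysosomes and the plasma membrane, read 9.11, 20.1 and 21.8 CPM and then 29.7 and 44.9 CPM, or 1.12 (SE 0.36) with an adjusted p of 0.121. SLC30A7 read 37.7, 63.5 and 70.6 CPM and then 28.6 and 30.8 CPM, or -0.94 (SE 0.32) with an adjusted p of 0.148. SLC38A1 and SLC30A7 are among the 13 carriers that were highest in 22Rv1.

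**Figure D4:**
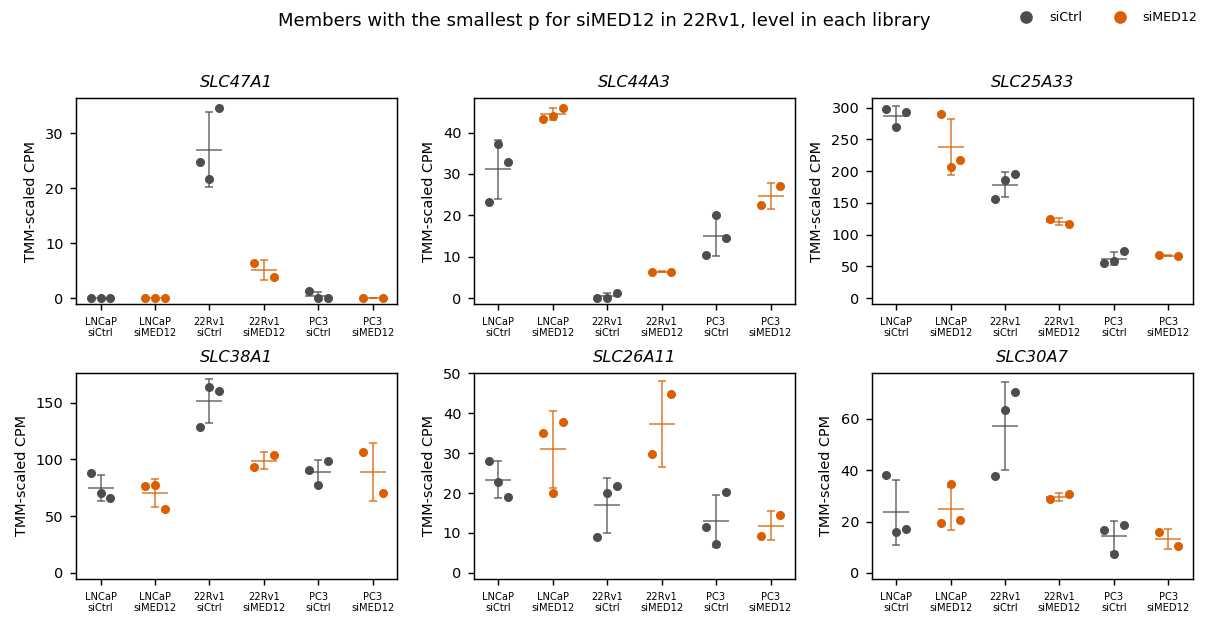
TMM-scaled CPM of the 6 members with the smallest p for siMED12 in 22Rv1, in each of the 16 libraries (points), with group means and SD (bars). Of these 6 members SLC47A1 passed the threshold, and since the panels were chosen by p, the gap between the 22Rv1 treatments in them restates that choice.

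In LNCaP the smallest p belonged to SLC19A2, a thiamine carrier (chromosome 1, 169463909 to 169485944, minus strand). It read 16.6, 24.4 and 19.1 CPM in siCtrl and 11.2, 6.67 and 5.75 CPM in siMED12, or -1.36 on the log2 scale (SE 0.39) with an adjusted p of 0.174. SLC25A42, the mitochondrial coenzyme A carrier, had 2, 5 and 4 counts in siCtrl and 7, 12 and 13 in siMED12 (1.45, SE 0.47, adjusted p 0.289). SLC25A5 was the most abundant among these, at 1307, 1222 and 1380 CPM and then 1078, 865 and 1182 CPM, or -0.32 (SE 0.11) with an adjusted p of 0.386. SLC46A1, the proton-coupled folate carrier, SLC35A5 and SLC6A19 had log2 fold changes of 0.66, 0.89 and 1.16 with adjusted p-values of 0.528, 0.599 and 0.625. SLC6A19, the amino acid carrier detected in LNCaP, had 2, 3 and 9 counts in siCtrl and 8, 10 and 15 in siMED12.

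In PC3 most members with the smallest p were read at few counts. SLC6A9, a glycine carrier, had 26, 12 and 10 counts in siCtrl and 4 and 3 in siMED12, or -1.79 on the log2 scale (SE 0.59) with an adjusted p of 0.873. SLC25A21, the oxodicarboxylate carrier, had 4, 5 and 0 counts and then 0 and 0, and SLC1A1, a glutamate and cysteine carrier, had 3, 7 and 6 counts and then 2 and 0. SLC34A3 had 0 counts in siCtrl and 1 and 2 in siMED12, the 2 being in the library that carried LNCaP transcripts, and LNCaP is the line to which SLC34A3 was restricted. The part of those transcripts in this value was not tested. SLC35A2 and SLC22A18 had log2 fold changes of -0.55 and -1.06 with adjusted p-values of 0.974 each.

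By substrate class, the single call fell in the organic ion class of 22Rv1, and every other class had 0 members past the threshold in each line. In LNCaP the class medians ran from -0.15 for organic ions to 0.40 for nucleotide sugars, where all 5 members had fold changes above 0, against a median of -0.00 over all genes. The same 5 had a median of 0.07 in 22Rv1 and 0.02 in PC3. In 22Rv1 the lowest median of the classes with several members was -0.24, that of the amino acid carriers, of which 12 had fold changes below 0 and 6 above, against 0.01 over all genes. Together they summed to 498 to 548 CPM with siCtrl and to 419 to 430 CPM with siMED12, without overlap, where 26.6% of all single genes did not overlap. The sum was not tested, and the class was picked here for its low median. Within the sum SLC38A1 alone went from 151 to 98.6 CPM. SLC6A6 had 25, 26 and 30 counts in siCtrl and 3 and 30 in siMED12. In PC3 the medians of the classes with several members lay between -0.12 for sugars and 0.05 for amino acids, against -0.04 over all genes. The 36 mitochondrial carriers had a median of 0.07 in LNCaP with 23 of them above 0, -0.00 in 22Rv1 with 18 above 0 and -0.06 in PC3 with 13 above 0. Their siCtrl and siMED12 sums were 6030 ± 199 and 5551 ± 375 CPM in LNCaP, 5849 ± 157 and 5936 ± 277 CPM in 22Rv1, and 5318 ± 181 and 4966 ± 461 CPM in PC3. These are descriptions of lists, and genes of a class are not replicates.

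**Figure D5:**
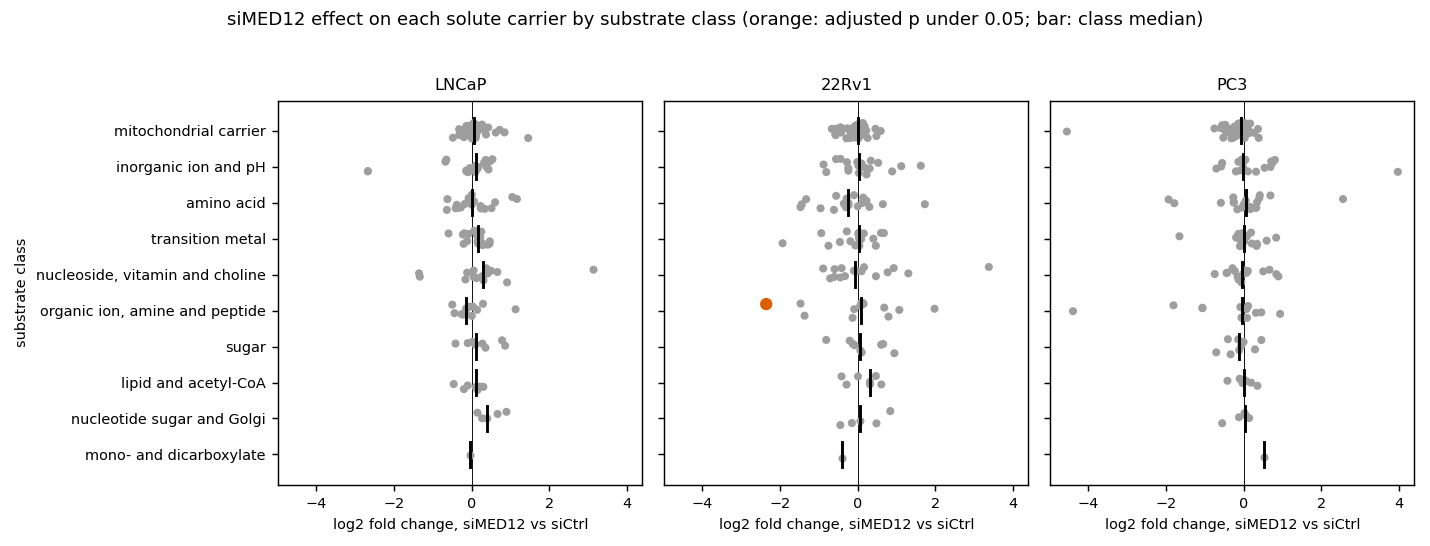
Log2 fold change of siMED12 against siCtrl for each of the 145 carriers, by substrate class and line, with a bar at the class median. Orange marks the single member past the threshold, SLC47A1 in 22Rv1 at -2.36, and the far points are carriers of few counts.

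An amino acid carrier outside the rule for naming turned on 1 library, and it was picked after its values were seen. SLC6A6, the taurine carrier, had 25, 26 and 30 counts in 22Rv1 siCtrl and 3 and 30 in siMED12, so its siMED12 libraries lay at 3.18 and 38.5 CPM. The log2 fold change was -0.96 (adjusted p 0.396) with both, -3.50 (adjusted p 0.00348) without replicate 3, which carried PC3 transcripts, and 0.02 without replicate 1. With carried-over counts subtracted it was -0.97 (adjusted p 0.398). PC3 itself read 43.9, 25.2 and 15.9 CPM of SLC6A6 in siCtrl.

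Carriers left out by the rule, carriers under other names and the partners of carriers were read in the same fit. Of the 12 carriers the rule leaves out, 11 were tested, and 1 passed with siMED12, SLC2A1, the basal glucose carrier, whose LNCaP mean was 170 CPM with siCtrl and 91.7 CPM with siMED12 (-0.88 on the log2 scale, SE 0.19, adjusted p 0.0213). Of 34 carriers whose symbols have another form, such as the mitochondrial pyruvate carriers and the organic anion transporters, 22 were tested and 0 passed with siMED12 in any line or in the mean. Of 22 carrier partners and ion pumps, 15 were tested and 0 passed. Between PC3 and LNCaP siCtrl, 8 of the 22 were higher and 8 lower, and 3 of the 15 were higher and 7 lower, where 29.2% of all genes were higher and 25.5% lower.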

How the data were processed

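BRB-seq tags every sample before pooling and reads transcript 3′ ends. STARsolo was used by the authors, with Gencode 43 and GRCh38.p13 per the submitters' processing notes, and raw counts per gene were deposited without normalization. Whether molecular identifiers were collapsed or strand was used is not given in the sources used here. The deposited log2 CPM table was made by the authors with edgeR from those counts, and recomputing it from the counts with the edgeR filter (minimum count 10, minimum total 15, 6 groups), TMM and a prior count of 2 gave its 10566 genes and its values to within 5.0e-14.

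Libraries were grouped by their labels. The counts were tested in R 4.3.3 with the 2-sided quasi-likelihood test of edgeR 4.0.16, using all 16 libraries together and 1 mean for each group, and adjusted over the 10566 genes of a contrast by the Benjamini-Hochberg method at 0.05. All adjusted p-values come from it unless another tool is named. The SE is the log2 fold change over the square root of its F statistic. The 14 pairs of replicates differed by 1.50 to 3.04 times the sampling noise, so none was a copy. The fit was tested on simulated data. Genes were named by rule: up to 8 restricted members per line, every member called with siMED12, the smallest p up to 6 per line, and the 2 highest of each class. Coordinates are from Gencode 44. Alternatives were RLE scaling, DESeq2 1.42.0, limma 3.58.1 on the deposited log2 CPM, no filter, the groups compared alone, a replicate block, subtraction of carried-over counts and each library left out. The legacy edgeR test and leaving out both siMED12 libraries numbered 3 were added after seeing the data. A list of luminal markers and 1 promoter motif are not reported here. The members, lists and classes were chosen with earlier results of these data known.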

Additional observations from a re-analysis of the deposited data

How the results depend on the processing

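The counts of restricted carriers, 5, 3 and 0 in LNCaP, 22Rv1 and PC3, and the 0 calls with siMED12 in LNCaP and PC3 held under all 25 alternatives. The calls between lines ranged over 55 to 80 for 22Rv1 against LNCaP, 66 to 86 for PC3 against LNCaP and 60 to 77 for PC3 against 22Rv1. With siMED12 in 22Rv1 the count of 1 became 2 with the legacy test and with limma, which added SLC44A3, 2 with the replicate block, which added SLC26A11 (adjusted p 0.0389), and 0 with DESeq2, which gave SLC47A1 no adjusted p, and ranged from 0 to 1 when single libraries were left out. Without 22Rv1 siMED12 replicate 3, with or without PC3 siMED12 replicate 3, the 1 call was SLC6A6 in place of SLC47A1. For the mean effect the count of 0 became 1 (SLC44A3) with the legacy test, with limma, without the filter and after subtraction of carried-over counts, 2 (SLC44A3 and SLC30A9) with the replicate block, and 0 to 1 when single libraries were left out, the 1 arising without PC3 siCtrl replicate 2. The difference PC3 minus 22Rv1 ranged from 0 to 1, the 1 (SLC6A6) arising without 22Rv1 siMED12 replicate 3. The cause of these changes was not tested. No named log2 fold change that passed turned its direction.

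Libraries of the same line and number correlated at 0.0516 to 0.214 over 7 pairs in their deviations from the group means. All 7 correlated best with their own number, as a hint from the data, but the numbers were not taken as pairing because not every pair was above 0.1. The replicate block moved the calls over all genes to 117 in LNCaP, 312 in 22Rv1 and 20 in PC3. At 479118 to 993807 counts per library, carriers of a few CPM could not be compared.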
